A study of Drosophila melanogaster with 4 samples.

Results

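The regions described here are the stretches of chromosome arm 3L that the authors called enriched for monomethylated lysine 20 of histone H4 (H4K20me1) in larvae of Drosophila melanogaster. They were chosen from the series-wide list by position alone: a region had to be called enriched, lie on 3L and end at least 2 Mb before the centromere-side end of the arm. By this rule 966 of the 5318 regions of the series-wide list were members, and 29 further regions in the last 2 Mb of the arm were left out. The arm is 24543557 bp long on FlyBase release 5, so members end at or before base 22543557, and shares of the arm below refer to these 22.5 Mb. The chromatin came from nuclei of larvae at the third instar of the wild-type strain Oregon-R (Oregon-R-modENCODE), crosslinked with formaldehyde and precipitated with a single lot of antibody, the third. There are 2 ChIP replicates, each with an input of the same strain and stage, and no other genotype, treatment or stage. The labels give neither the sex of the larvae nor whether the replicates came from separate collections, so the spread between replicates may be technical. The homogenised tissue mixes cell types, so a weak region in every cell and a strong region in a few cells cannot be told apart.

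H4K20me1 is placed by the methyltransferase PR-Set7, which is needed for normal progress through the cell cycle and for stable genomes in flies and mammals. A second enzyme, Suv4-20, adds further methyl groups to the same lysine, and the trimethylated form is a mark of heterochromatin next to centromeres. Monomethylated H4K20 in flies is also bound by proteins with MBT repeats, such as the tumour suppressor L(3)mbt, and has been described over the bodies of genes as well as in compacted chromatin. Regions are given by their coordinates, because no annotation of release 5 was used, and nothing is stated on the genes they cover.

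Most members on 3L were short, but in the series-wide list the long minority held most of the marked sequence. Members were 1001 to 113957 bp long, with a median of 3390 bp. The 610 members under 5 kb held 22.4% of the bases in members, while the 178 members of 10 kb or more held 58.9%. In the replicate lists the share in regions of 10 kb or more was lower, at 44.7% in replicate 1 and 46.6% in replicate 2. The 69 members of 20 kb or more, of 312 such regions on all sequences, included 9 of 50 kb or more, which alone held 9.42% of the bases. In total the members covered 6.62 Mb, which is 29.4% of the arm.

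Both replicates marked a similar share of the arm, in differently sized pieces. Replicate 1 had 1203 regions over 6.31 Mb, or 28.0% of the arm, and replicate 2 had 979 regions over 5.60 Mb, or 24.8%. The mean coverage was 26.4% ± 2.23 (SD, n = 2). Region length had a median of 2715 bp for replicate 1 and of 3291 bp for replicate 2. There were 132 replicate 1 regions and 135 replicate 2 regions of at least 10 kb, or 5.92 ± 0.094 per Mb (mean ± SD, n = 2). Replicate 1 therefore had more regions in all but about as many long ones. No read count was used, so the depth behind these calls is unknown.

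The larger part of the members overlapped both replicates, and these members were longer than the others by median. A total of 624 of the 966 members (64.6%, exact Clopper-Pearson 95% interval 61.5 to 67.6%) shared at least 1 bp with a region of each replicate, against 61.5% of the regions of all sequences, 3L included. These 624 members held 90.1% of the member bases and had a median length of 5851 bp. Another 177 members overlapped replicate 1 alone, 100 overlapped replicate 2 alone and 65 overlapped neither. The median length was 1771 bp for those on replicate 1 alone, 1733 bp for those on replicate 2 alone and 1247 bp for those on neither. The interval covers counting error over regions only, and the series-wide list was made from the same libraries, so these shares describe the list and do not test it.

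Support in both replicates went with length. Of the 270 members under 2 kb, 32 overlapped both replicates (11.9%, 8.25 to 16.3%). From 2 to 5 kb it was 243 of 340 (71.5%, 66.4 to 76.2%), and from 5 to 10 kb it was 172 of 178 (96.6%, 92.8 to 98.8%). All 69 members of 20 kb or more overlapped both. Of the 356 members of 5 kb or more, 7 missed a replicate. A longer region has more bases with which to meet another by chance, and that share was not estimated. The shortest region of either replicate on 3L was 1301 bp long, whereas 107 members were shorter than that, of which 5 overlapped both replicates.

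**Figure D1:**
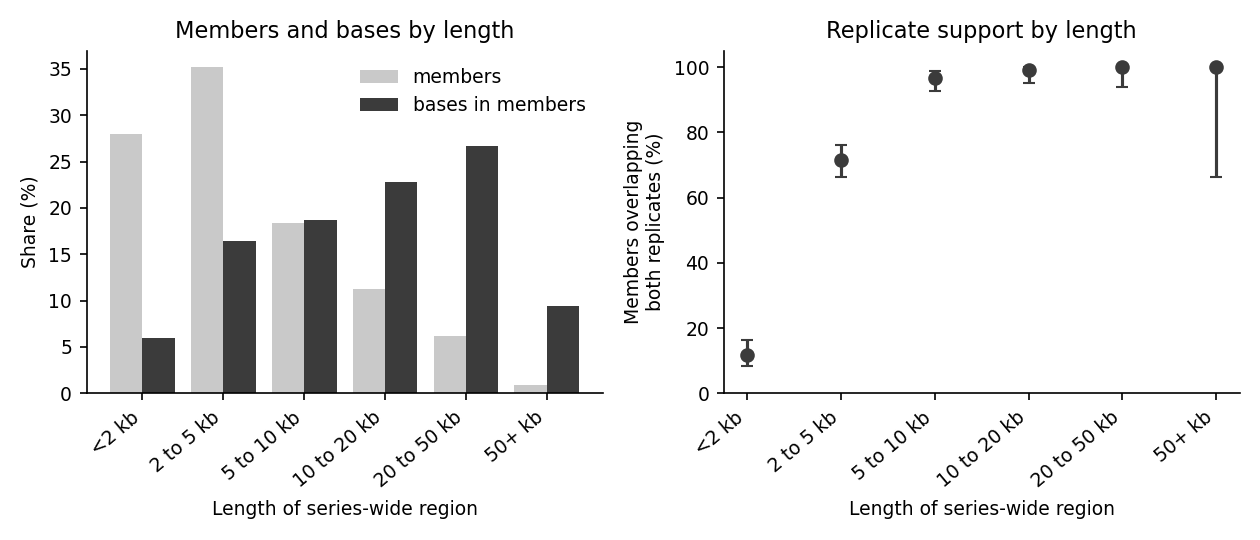
Left, share of the 966 members of arm 3L (light bars) and of their bases (dark bars) in 6 length classes. Right, percentage of the members of each class that overlap a region of both replicates by at least 1 bp, with exact 95% intervals for counting error; it is 11.9% under 2 kb and 96.6% from 5 to 10 kb.

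The authors' score, treated as a log2 value of unknown offset, was also higher for members that both replicates supported. The median score was 0.68 for members on both replicates (quartiles 0.49 and 1.01), 0.38 for those on replicate 1 alone, 0.33 for those on replicate 2 alone and 0.35 for those on neither. The highest score of a member that missed a replicate was 0.77, and 273 members lay above it. Score and length rose together over all members, with a Spearman's rho across members of 0.79, but within the 178 members of 10 kb or more rho was 0.29. Members of 50 kb or more had scores of 0.92 to 1.73 (median 1.24), while members of 5 to 10 kb spanned 0.33 to 1.90 (median 0.84). Of the 100 longest and the 100 highest-scored of all 966 members, 41 were in both groups. These medians and rho values describe regions of shared libraries, so the score does not test the support. Members on both replicates were also longer than the others by median. How the score is formed over a region is not given in the sources used here, so part of its relation to length may be set by its definition.

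**Figure D2:**
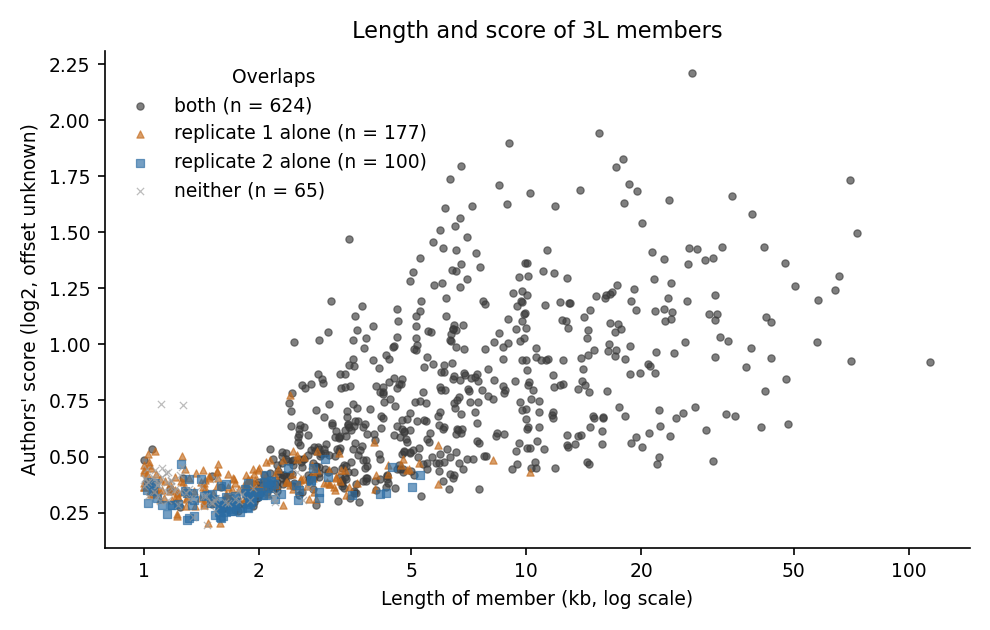
Length (log scale, kb) and authors' score (log2, offset unknown) of each of the 966 members, with a symbol for the replicates it overlaps. Members that miss a replicate lie at scores of 0.77 or less and mostly under 5 kb, whereas the scores of long members reach 2.21.

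Counted in bases, the replicates shared 4.70 Mb of 3L, while replicate 1 alone marked 1.61 Mb and replicate 2 alone 0.898 Mb. The shared bases were 65.2% of those enriched in either (Jaccard index), 74.5% of the replicate 1 bases and 84.0% of the replicate 2 bases. Much of the sequence marked by 1 replicate alone adjoined shared regions. Of the replicate 1 bases absent from replicate 2, 51.0% flanked or interrupted regions that the replicates shared and 49.0% lay in 393 regions of their own, with a median of 1633 bp. Of the replicate 2 bases absent from replicate 1, 69.2% were at shared regions and 30.8% lay in 126 regions of their own, with a median of 1928 bp. The regions of replicate 1 with a partner had a median length of 4037 bp, and those of replicate 2 with a partner 3747 bp.

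The ends of a region mostly lay within 1000 bp of each other where the lists matched one to one. This was so for 314 members, each with 1 region in each replicate that overlapped no other member. Members that shared a replicate region with another member were left out, so these distances do not cover them. Over their 628 ends, the median distance between the replicates was 432 bp, with quartiles of 166 and 937 bp. This distance was 500 bp or less at 53.3% of the ends, 1000 bp or less at 77.1%, and over 2000 bp at 6.85%. The median was 417 bp for the 187 members under 5 kb, 462 bp for the 119 members of 5 to 20 kb and 276 bp for the 8 members of 20 kb or more. Relative to the median length of each group this is 14.0%, 6.61% and 1.11%. The replicate 1 region was the longer of the pair at 185 of the 314 members.

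Long members were often a row of pieces in the replicates. Of the 177 members of 10 kb or more on both replicates, 98 were split into more than 1 region in replicate 1 (55.4%) and 96 in replicate 2 (54.2%). Over all 624 members on both replicates, 159 (25.5%) and 162 (26.0%) were split. A longer member has more room for breaks, and that part was not estimated. Inside the 69 members of 20 kb or more, replicate 1 left 106 unmarked breaks with a median of 422 bp and replicate 2 left 109 with a median of 511 bp. Of these breaks, 72.6% were under 1 kb in replicate 1 and 66.1% in replicate 2, and the longest was 5767 bp in replicate 1 and 8562 bp in replicate 2. Neither replicate was the more fragmented: 25 of the 69 members had more pieces in replicate 1, 25 had more in replicate 2 and 19 had the same number.

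The longest member ran from 22287092 to 22401048, 114.0 kb with a score of 0.92, and was the last member but one before the 2 Mb limit. Replicate 2 marked it as a single region of 113.4 kb that covered 99.4% of it. Replicate 1 marked 93.4% of it in 9 regions, the longest of 42.9 kb. The 9 other members among the 10 longest on both replicates were 48.4 to 73.4 kb long. The member from 506186 to 579556 (73.4 kb, score 1.50) and the one from 433022 to 490840 (57.8 kb, score 1.20) lie near the tip of the arm. Replicate 1 covered 99.9% of the 73.4 kb member in 2 regions, and replicate 2 covered 93.3% of it in 3. With 3 shorter members between them and gaps under 1 kb, this pair formed a chain of 5 members over 146.5 kb, of which 87.3% was enriched in both replicates. It was the longest chain after members within 1 kb of each other, or within 5 kb, were joined.

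The member from 17942908 to 18012932 (70.0 kb, score 1.73) was the 1 member in both the 10 longest and the 10 highest-scored. Replicate 1 covered 98.6% of it and replicate 2 covered 95.6%. The members from 21027192 to 21092812 (65.6 kb, scored 1.30), from 8820078 to 8884330 (64.3 kb, scored 1.24) and from 13221686 to 13272076 (50.4 kb, at a score of 1.26) were enriched in both replicates over 99.5%, 98.0% and 99.4% of their length. The last of these is a single region in each replicate, 51.4 kb long in replicate 1 and 50.1 kb in replicate 2. It stood alone, with 109.5 kb before it and 133.9 kb after it without a member. Of the 69 members of 20 kb or more, it was the 1 with over 50 kb free of members on each side, whereas 40 of the 69 (58.0%) had a neighbour within 1 kb, close to the 478 of 897 (53.3%) among shorter members.

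Among the 10 longest, agreement was lowest for the member from 5193066 to 5241494 (48.4 kb, score 0.65), which was in 10 pieces in replicate 1 and 8 in replicate 2, with 69.9% of its bases enriched in both, or 36.3% when the upper-scoring 50% of each replicate list was kept. The member from 3717428 to 3788064 (70.6 kb, score 0.92) lay in 3 regions in replicate 1, which covered 99.7% of it, and in 6 in replicate 2, which covered 90.1%. The member from 10508920 to 10566458 (57.5 kb, score 1.01) was in 3 regions in replicate 1 and 5 in replicate 2, with 92.9% enriched in both. With the upper-scoring 50% of each list, the share enriched in both fell to 44.5% for the 114.0 kb member, and 5 of the 10 longest members stayed at 90% or more, against 9 with all regions.

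**Figure D3:**
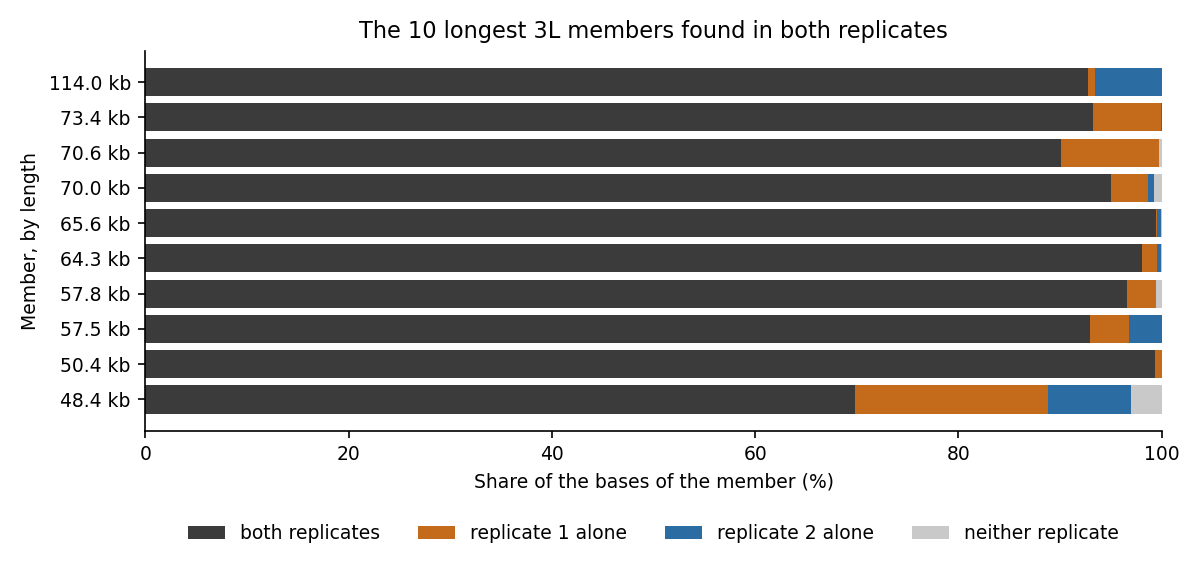
Bases of each of the 10 longest members of 3L that overlap both replicates, as shares marked by both replicates, by 1 of them or by neither (colours); labels give the length in kb. In 9 of the 10 members at least 90.0% of the bases are enriched in both, and in the 48.4 kb member 69.9% are; all regions of the replicate lists are counted.

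The highest-scored members were mostly a single region in each replicate. The 10 highest on both replicates had scores of 1.71 to 2.21 and lengths of 6.30 to 70.0 kb, and 8 of the 10 had 1 region in each replicate. Among all members, 1 region in each replicate was also found for 104 of 178 members of 5 to 10 kb. It was found for 36 of 109 members of 10 to 20 kb and 9 of 60 of 20 to 50 kb. The share of bases that both replicates marked was 90.6% to 98.9%. The highest of the arm was the member from 16131024 to 16158118 (27.1 kb, score 2.21), whose best-matching region scored 2.22 in replicate 1 and 2.20 in replicate 2. It lay 16.3 kb after another of the 10, from 16106208 to 16114678 (8.47 kb, score 1.71). The member from 304614 to 320104 (15.5 kb, score 1.94) and the first member of the arm, from 128706 to 145876 (17.2 kb, score 1.79), lie at the tip. The member from 6736866 to 6745858 (8.99 kb, score 1.90) had the highest replicate 2 score of the arm, 2.27, and a replicate 1 score of 1.64. Beside the 70.0 kb member above, the other 4 began at 10850632, 15130118, 15527794 and 17544444, with scores of 1.72 to 1.83. Scores are not compared in size between lists.

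By rank, the replicates placed many of the same regions at the top. Of the 50 highest-scored regions of replicate 1 on the arm, 33 overlapped 1 of the 50 highest-scored of replicate 2 (66.0%). Of those 50 replicate 2 regions, 34 overlapped 1 of the 50 of replicate 1 (68.0%). For the 50 longest regions the counts were 35 of 50 and 36 of 50. A region of any rank in the other replicate was met by 47 of the 50 highest-scored of replicate 1 and 50 of replicate 2. It was met by all 50 longest of each replicate. Over all regions of the arm, 67.3% of replicate 1 and 87.1% of replicate 2 met one. How far the top ranks would overlap by chance was not estimated. Over the 624 members on both replicates, Spearman's rho between the replicate scores was 0.63.

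Some members were marked mainly in 1 replicate. The longest on replicate 1 alone ran from 18634608 to 18644808 (10.2 kb, score 0.43), of which replicate 1 covered 99.0% and replicate 2 none. The next such members ran from 11625070 to 11633258 (8.19 kb) and from 18877662 to 18883554 (5.89 kb), with scores of 0.48 and 0.38. The longest on replicate 2 alone were from 4774044 to 4779312 (5.27 kb, scored 0.42), from 17360974 to 17366006 (5.03 kb, scored 0.36) and from 6484284 to 6488748 (4.46 kb, scored 0.45). The longest on neither replicate were 2.51 to 2.68 kb long, and the first of them, from 490940 to 493622, lies inside the chain of 146.5 kb at the tip of the arm.

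Longer members could also differ. The member from 14309474 to 14340220 (30.7 kb, score 0.48) had 85.1% of its bases marked by replicate 1 and 15.4% by replicate 2. The opposite held from 4746826 to 4769090 (22.3 kb, scored 0.50), with 19.9% in replicate 1 and 93.8% in replicate 2, and from 4726408 to 4737506 (11.1 kb, scored 0.53), with 12.9% and 94.6%. These 2 members belong to a chain of 10 members within 10 kb of each other, from 4692644 to 4796930, over which replicate 1 covered 30.7% and replicate 2 covered 83.6%. The chain was picked for this difference. From 12023136 to 12035044 (11.9 kb), replicate 1 covered 85.2% and replicate 2 covered 27.0%. These 4 members were picked for a low share of bases enriched in both replicates. They had scores of 0.45 to 0.53, against medians of 0.93 for members of 10 to 20 kb and 1.07 for those of 20 to 50 kb. The series-wide list was made from the same libraries, so this contrast may in part be set by how they were picked.

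Many members lay close together, and a large part of the arm had none. Between neighbouring members the median gap was 2817 bp, and 31.4% of the 965 gaps were under 1 kb. In the replicates this share was 29.5% on average, and 16.2% with the upper-scoring 50% of each list. At the other end, 85 gaps of over 50 kb made up 9.41 Mb, or 41.7% of the arm. The longest ran for 433.0 kb, from 18178903 to 18611895, where replicate 1 had 2 regions over 2.25 kb and replicate 2 had none. The next were 347.5 kb long, from 13509239 to 13856689, and 301.3 kb long, from 4825721 to 5127015. In the gap of 347.5 kb replicate 1 marked 6.10 kb and replicate 2 marked 0.119 kb. In the gap of 301.3 kb replicate 1 marked none and replicate 2 marked 1.67 kb. No base of the 3 gaps was enriched in both replicates. Whether reads could be placed throughout these stretches is not known, so the absence of a call does not show that the mark is absent.

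Coverage changed sharply from one stretch of the arm to the next. Over 45 full windows of 500 kb the mean of the replicates lay between 4.76% and 45.2%, and its median was 25.8%. The SD between windows was 9.68 points and the median SD between replicates within a window was 2.75 points. High and low windows were mostly the same in both replicates, with a Spearman's rho over windows of 0.85, a description since windows share libraries. Between the coverage of a window and that of the next, rho was 0.0076. Coverage followed the number of members of 10 kb or more in a window (rho 0.73) and the number of all members (rho 0.65), but not their median score (rho 0.089). Since enriched regions make up the coverage, a positive rho with their number is in part built into the measures.

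The most covered windows were those from 3.0 to 3.5 Mb, at 45.2% ± 1.74 (SD, n = 2), from 16.5 to 17.0 Mb, at 44.9% ± 0.78, and from 19.5 to 20.0 Mb, at 43.5% ± 4.03. The last of these holds a chain of 23 members within 10 kb of each other, from 19682538 to 19926728, which at 244.2 kb is the longest such chain of the arm. The least covered were from 10.0 to 10.5 Mb, at 4.76% ± 2.93, from 15.0 to 15.5 Mb, at 8.01% ± 0.072, and from 13.5 to 14.0 Mb, at 13.9% ± 0.59. The first 2 of these low windows had no member of 10 kb or more. In each, both replicates were low: 6.83% in replicate 1 and 2.69% in replicate 2 for the first, and 8.06% and 7.96% for the next.

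**Figure D4:**
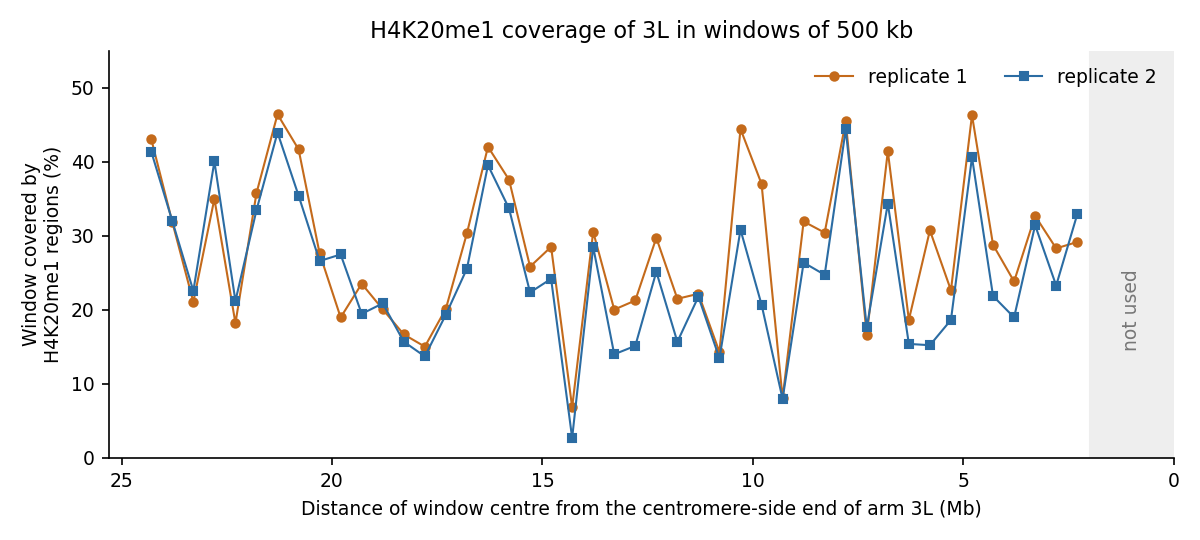
Percentage of each of 45 windows of 500 kb of 3L covered by the regions of replicate 1 (circles) and replicate 2 (squares), against the distance of the window's centre from the centromere-side end of the arm; the grey band is the 2 Mb left out. Both replicates fall below 10% in the same 2 windows, and replicate 1 stands above replicate 2 in 37 of the 45.

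Replicate 1 was above replicate 2 in 37 of the 45 windows. The windows that differed most, and were picked for it, were from 14.5 to 15.0 Mb, at 37.0% in replicate 1 and 20.7% in replicate 2, from 18.5 to 19.0 Mb, at 30.7% and 15.2%, and from 14.0 to 14.5 Mb, at 44.4% and 30.8%. In the first of these, 28 of the 46 replicate 1 regions had no partner in replicate 2, against 393 of 1203 over the arm. There, 22 of the 25 replicate 2 regions had a partner in replicate 1, close to the 853 of 979 (87.1%) over the arm. These 3 windows are 6.65% of the arm and held 16.0% of the bases enriched in replicate 1 alone. Without them coverage was 27.3% in replicate 1 and 25.0% in replicate 2, and the Jaccard index was 66.5%.

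Along the arm in blocks of 5 Mb, the tip-side block was the most covered in both replicates, at 32.0% in replicate 1 and 32.4% in replicate 2. Coverage was 24.8% and 18.8% from 10 to 15 Mb, the lowest block in each. The tip-side block also had the most members of 10 kb or more, 11.4 per Mb, against 6.0 to 8.0 per Mb in the next 3 blocks and 4.72 per Mb in the last 2.54 Mb before the limit. The number of members of any length changed less, with 34.2 to 48.8 per Mb over all blocks. The median score of the blocks lay between 0.45 and 0.50.

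At the edge of the dropped sequence, the last 2 members were the 114.0 kb member and a member from 22452456 to 22453798 (1.34 kb, score 0.23) that overlapped neither replicate. The first 2 regions past the limit ran from 22660296 to 22662086 (1.79 kb, scored 0.28) and from 22707328 to 22710724 (3.40 kb, scored 0.62). No region of the 3 lists crossed the limit.

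To place 3L among arms, 2L, 3R and the X chromosome were filtered in the same way, without the 2 Mb next to the centromere. Coverage was 28.0% on 3L, 24.7% on 2L, 25.4% on 3R and 23.2% on X in replicate 1, and 24.8% on 3L, 22.3% on 2L, 24.9% on 3R and 21.2% on X in replicate 2. Within a replicate 3L lay above 2L by 3.27 and 2.54 percentage points, a mean of 2.91 ± 0.51 (SD, n = 2), and above X by 4.84 and 3.62 points, a mean of 4.23 ± 0.86. Against 3R the difference was 2.57 points in replicate 1 and -0.098 points in replicate 2, so the arms were not separated beyond the spread between replicates; with whole arms it was -0.645 points. Since the arms were measured in the same 2 libraries, an exact two-sided permutation test that exchanges arms within replicates cannot go below 0.5, so no difference between arms is called.

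Long regions were about as dense on 3L as on 3R, and sparser on X in each replicate. Regions of 10 kb or more numbered 5.92 ± 0.094 per Mb on 3L, 5.38 ± 0.20 on 2L, 5.98 ± 0.44 on 3R and 4.48 ± 0.31 on X (mean ± SD, n = 2 each). They held 44.7% and 46.6% of the enriched bases on 3L, against 38.0% and 35.0% on X. The number of regions of any length was 48.4 ± 7.03 per Mb on 3L and 48.4 ± 2.70 on X. The share of series-wide regions on both replicates was 64.6% on 3L, 64.1% on 2L, 63.3% on 3R and 56.1% on X, and the Jaccard index was 65.2% on 3L, 64.1% on 2L, 68.2% on 3R and 57.9% on X. These values are descriptions of 2 libraries, with no test of the arms.

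**Figure D5:**
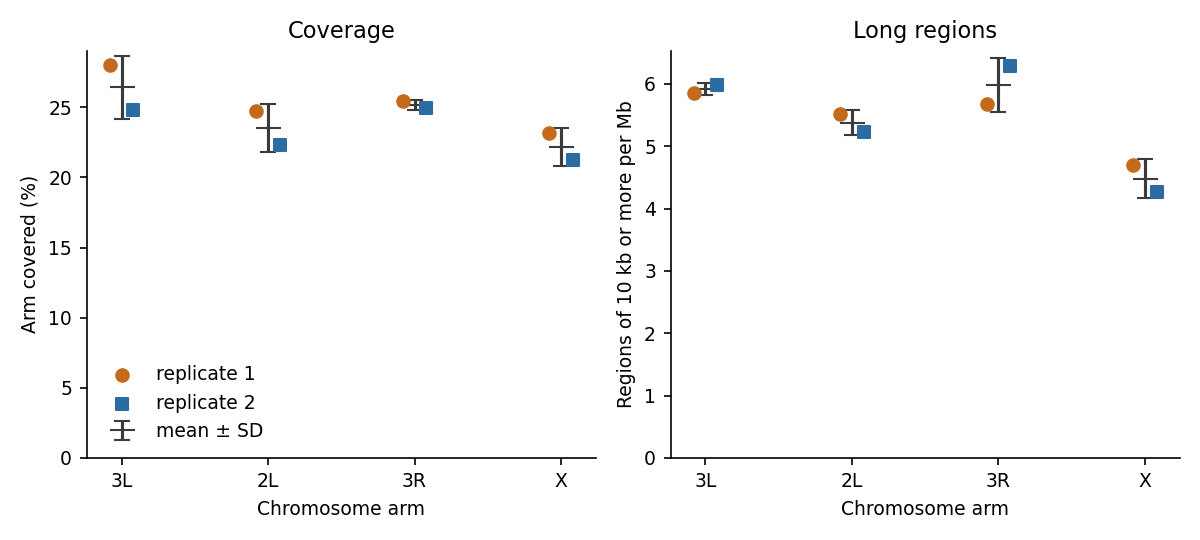
Covered percentage (left) and regions of 10 kb or more per Mb (right) on 3L, 2L, 3R and X, each without the 2 Mb next to the centromere, for replicate 1 (circles), replicate 2 (squares) and their mean ± SD (n = 2). On the left 3L lies above 2L and X within each replicate and is not separated from 3R; on the right X is lowest, at 4.48 per Mb.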

How the data were processed

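Per the labels, chromatin of third-instar Oregon-R nuclei was precipitated for H4K20me1 in 2 replicates, each with its own input. Reads were aligned with Bowtie 0.12.7, per the submitters' processing notes, and the build is FlyBase release 5, per the file headers. The authors deposited 1 list of enriched regions per ChIP replicate and 1 for the series, each region with a start, an end and a score. The sources used here give neither the region caller and its threshold nor how the score is defined and the replicates were combined. The deposited score was treated as log2: after subtracting a recurring score, 2 raised to the difference could be written as a fraction of integers whose denominator did not exceed 2000 (relative tolerance 1e-11) for 94.3%, 74.6% and 80.4% of the 3L regions of replicate 1, replicate 2 and the series-wide list, against at most 1.25% with other logarithms. Its offset is unknown, so it ranks regions within a list.

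Regions called enriched were kept, and arms were filtered as described. Overlap needed 1 bp. Coverage is enriched bases over kept arm length, the Jaccard index is bases enriched in both replicates over bases in either, and windows of 500 kb start at base 1. Arithmetic used Python 3.11.15, NumPy 2.4.6, pandas 2.3.3 and SciPy 1.17.1, and the interval functions gave the right answer in 20 of 20 simulated pairs of lists. Depth is unknown, and intervals cover counting error over regions only. A gene table of release 6 was given and not used, since its build differs, and no sequence is shown. There is 1 condition, so no test between groups was made.

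The regions, lists and comparisons were chosen with earlier results of these data known. Regions are named by a rule: the 10 longest and the 10 highest-scored members on both replicates, and the 3 longest on each replicate alone and on neither. It also names the 3 longest gaps, the 3 most covered, 3 least covered and 3 most differing windows, the 2 regions on each side of the limit, and the 5 members of 10 kb or more with the lowest share of bases in both replicates. Chains were picked after their values were seen. Alternatives were the upper-scoring 50% of each list, joined regions, other limits at the centromere side, other overlaps, other windows and each replicate alone. The setting without the 3 most differing windows was chosen after seeing the data.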

Additional observations from a re-analysis of the deposited data

How the results depend on the processing

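Between the ChIP and input groups no paired analysis was possible because no region list of an input was used here. Arms were compared within each replicate. The coverage of 3L ran from 24.8% to 28.0% when either replicate was left out. It was 20.0% for the upper-scoring 50% of each list and 29.4% in the series-wide list. Regions of 10 kb or more numbered 5.86 to 5.99 per Mb with 1 replicate left out, 5.74 for the upper-scoring 50%, 7.72 with regions within 1 kb joined and 7.90 in the series-wide list. The share of bases enriched in both replicates moved most among the 10 longest members for the one of 114.0 kb (92.8% with all regions, 44.5% for the upper-scoring 50%). The Jaccard index was 60.3% for the upper-scoring 50%, 66.7% with joined regions and 66.5% without the 3 most differing windows. The share of members on both replicates was 55.7% when each replicate had to cover at least 50% of the member and 85.1% for members of 2 kb or more. The gap in median score between members on both replicates and the others was 0.32, and 0.42 under that stricter overlap. Gaps under 1 kb were 29.5% of gaps (mean of the replicates), 16.2% for the upper-scoring 50%, and 41.9% with a limit of 2 kb. The rank correlation of windows was 0.86 at 1 Mb, 0.92 at 250 kb and 0.76 for the upper-scoring 50%.

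The coverage of 3L minus that of 2L stayed positive in the alternatives run, from 2.02 points with whole arms, and was 2.35 points for the upper-scoring 50% and 2.54 to 3.27 points with 1 replicate left out. Minus X it was 2.49 points for the upper-scoring 50%, 3.18 points in the series-wide list and 3.62 to 4.84 points with 1 replicate left out. Minus 3R it changed sign, at -0.645 points with whole arms and at -0.098 to 2.57 points with 1 replicate left out (negative without replicate 1). The cause was not tested. With whole arms the share also takes in the 2 Mb next to each centromere. Unknown read depth limits what can be said of short regions, most of which were called in 1 replicate or none.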
